A study of Culex pipiens pallens and Culex quinquefasciatus with 12 samples.

Results

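Of 12 pools of mosquito larvae, 3 gave few reads from the larval storage protein genes. These 3 low pools were quinquefasciatus 2 (labelled A2), pallens 6 (A10) and pallens 7 (A11), and they are compared here with the other 9, called high pools. The pools were sorted by their own values: each library's score was the mean of log2(CPM + 1) over the 12 gene models described as hexamerin, larval serum protein, arylphorin or storage protein, where CPM scales reads to a common library total, and a score below 10 made a pool low. The 3 low pools belong to both subspecies of the series, since 1 of 5 libraries of *Culex pipiens quinquefasciatus*, the southern house mosquito, and 2 of 7 of *Culex pipiens pallens*, its northern relative, were low. Each library was made from the pooled total RNA of 30 whole larvae. The labels give no sex, instar, treatment or site for any pool; the series title speaks of different levels of resistance, but no label says which pool is resistant, so low and high are not treatments.

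Hexamerins, a family to which the arylphorins and larval serum proteins belong, are made by the larval fat body, the insect counterpart of liver and adipose tissue. They are secreted into the haemolymph in the last larval stage and later taken back up as a store of amino acids for building the adult. Their transcripts can make up much of the messenger RNA of a larva, and their amount changes with feeding and with age within the last instar.

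The score was 8.29 in pallens 7, 8.53 in pallens 6 and 9.74 in quinquefasciatus 2. The 9 high pools scored from 10.58 (pallens 2) to 11.38 (quinquefasciatus 1). Quinquefasciatus 2 was thus the pool just inside the limit and pallens 2 the pool just outside it. With the median over the 12 genes in place of the mean, or with the 11 genes that had 10 reads in every library, 2 pools lay below 10: quinquefasciatus 2 then scored 10.36 or 10.46, still below every high pool.

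The 12 genes together took 9.59% of the reads of quinquefasciatus 2, 4.14% of those of pallens 6 and 3.84% of those of pallens 7. They took 11.97% to 16.79% in the 9 high pools. These values chose the pools, so they are a description and were not tested.

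**Figure D1:**
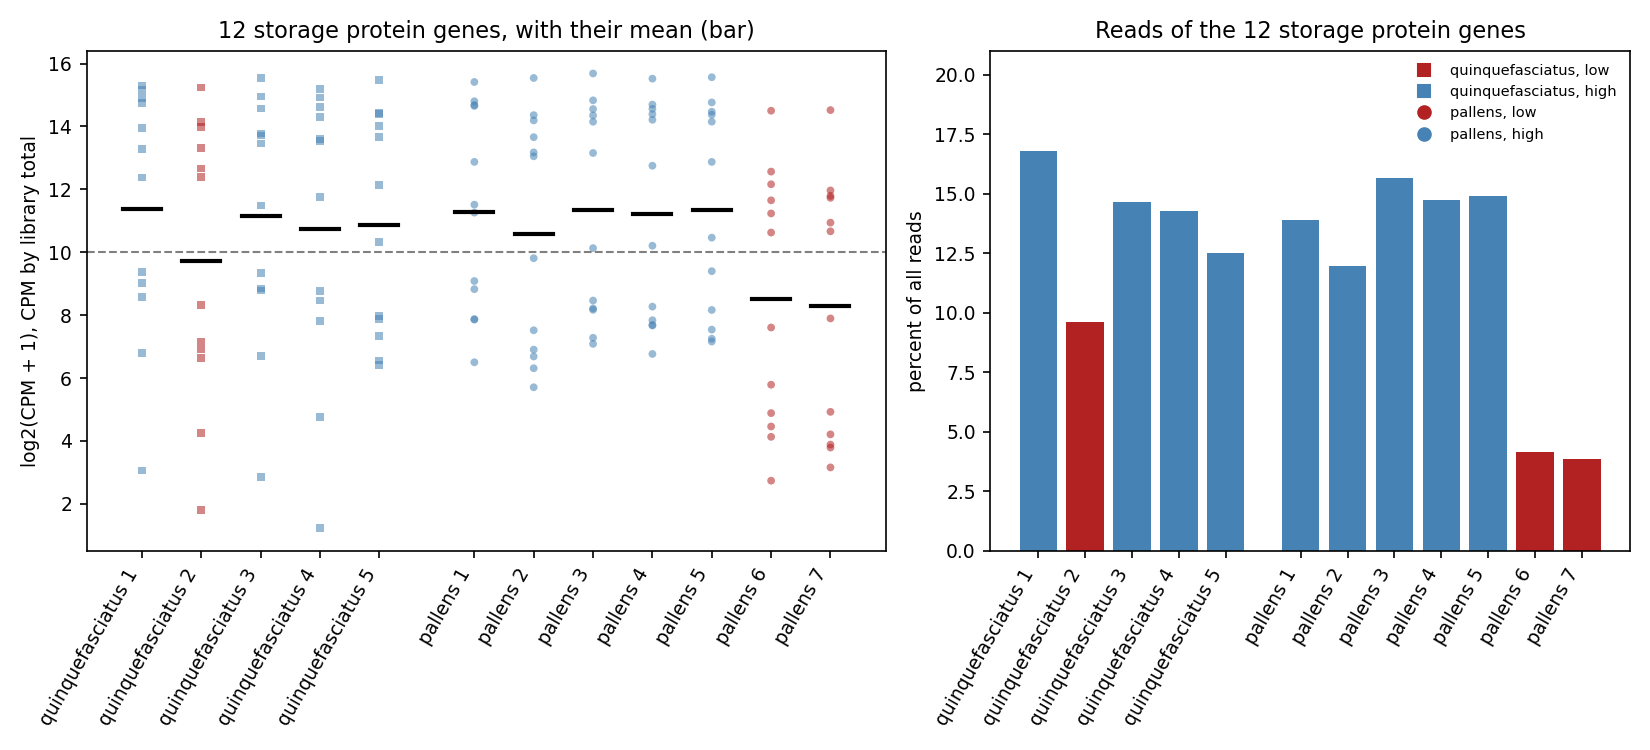
Left, log2(CPM + 1) of each of the 12 storage protein genes in each library (points) and their mean, the score (bars); the dashed line is the limit of 10. Right, the percent of each library's reads that came from the 12 genes. Pallens 6 and 7 lie lowest on both measures, and quinquefasciatus 2 lies between them and the high pools.

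All 12 genes had a lower mean in the low than in the high pools of both subspecies, and in 6 of them every low pool was below every high pool. Larval serum protein 2 (CPIJ001820-RA, supercont3.23:441088-443953) had 18193 CPM in quinquefasciatus 2, 4583 in pallens 6 and 3398 in pallens 7. In the high pools it ranged from 21037 CPM (pallens 2) to 36442 CPM (quinquefasciatus 1). Arylphorin subunit alpha (CPIJ007783-RA, supercont3.162:624455-626739) had 5360, 3216 and 1624 CPM in the same 3 low pools and 9254 to 27389 CPM in the high ones. Both genes left a gap between the classes.

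The most abundant of the 12, arylphorin subunit C223 (CPIJ009033-RA, supercont3.216:559039-561278), did not separate quinquefasciatus 2. It had 38706 CPM there, inside the range of the other quinquefasciatus pools (37496 to 47308 CPM), against 23198 and 23517 CPM in pallens 6 and 7 and 43687 to 52718 CPM in the other pallens pools. Hexamerin 2 beta (CPIJ009506-RA) likewise had 10244 CPM in quinquefasciatus 2, close below the 11872 to 15731 CPM of its subspecies, and 2409 and 1967 CPM in pallens 6 and 7. The larval serum protein 1 beta chain model CPIJ006537-RA had 17.9, 5.66 and 7.93 CPM in the low pools and 26.0 to 231 CPM in the high pools. Between single genes the log2 difference of quinquefasciatus 2 from its subspecies ran from -0.14 (arylphorin C223) to -4.64 (CPIJ004282-RA, where quinquefasciatus 5 had 233.7 CPM and the other 3 high pools 1.35 to 7.34 CPM) and was -3.33 in CPIJ009032-RA. That of pallens 6 and 7 ran from -1.04 (arylphorin C223) to -4.30 (CPIJ006537-RA).

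A second larval serum protein 2 model, CPIJ001822-RA, had 16233, 6061 and 4001 CPM in quinquefasciatus 2, pallens 6 and pallens 7, against 18748 to 30819 CPM in the high pools. Another, CPIJ009032-RA, had 321, 194 and 237 CPM against 897 to 5311 CPM. The larval serum protein 1 beta chain model CPIJ018825-RA had 98.5, 16.5 and 17.5 CPM against 161 to 460 CPM. These 3 kept the classes apart.

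The remaining 4 did not. The larval serum protein 1 beta chain models CPIJ000056-RA, CPIJ018824-RA and CPIJ006538-RA had 6477, 141 and 119 CPM in quinquefasciatus 2, each inside the range of the high pools, whose lowest values were 2923, 78.4 and 93.0 CPM. Hexamerin 2 beta CPIJ004282-RA had 2.50, 54.3 and 29.4 CPM in the low pools. It ranged from 1.35 to 233.7 CPM in the high quinquefasciatus pools and reached 674 CPM in the high pallens pools.

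The low pools held 4311426 ± 87384 reads assigned to gene models (mean and SD, n = 3) and the high pools 4609886 ± 485113 (n = 9). Between 14321 and 15264 models had a read in the high pools and 15083 to 15467 in the low pools. The low pools were not alike throughout. Pallens 6 and 7 were the closest pair of the series, with a chi-square of 16.9 per degree of freedom between their counts, where repeated sequencing of 1 library would give about 1. Quinquefasciatus 2 was closest to pallens 3 (43.6), and lay at 59.5 and 65.3 from pallens 6 and 7 and at 62.8 or more from every other quinquefasciatus pool. The libraries did not sort by subspecies alone: quinquefasciatus 5 was closest to pallens 1, at 19.9, and quinquefasciatus 4 also to pallens 1, at 25.7.

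To ask which other genes differ between low and high pools, the 11251 other genes with enough reads were tested with subspecies as a covariate (edgeR's quasi-likelihood test, Benjamini-Hochberg adjusted p under 0.05 over all 11251 genes). Of these, 1196 passed, or 10.6%. Of the 11251, 821 (7.30%) were higher in the low pools and 375 (3.33%) were lower; 776 of the 1196 carry a description. These 2 shares are the background for each count below of genes that passed. The median log2 difference over all genes tested was -0.02, and 48.6% of the differences were positive. That share is the background for counts by sign. With DESeq2 the split was more even, at 994 higher and 806 lower. The low and high pools were apart within both subspecies, in the same direction, for 1848 genes (16.4% of those tested; 10.5% higher and 5.91% lower in the low pools), and 1077 of the 1196 were among these. The pools were sorted by values of the same libraries, which the p-values do not account for, and nothing in the labels says that pools came from separate cultures, so p-values measure the spread between these 12 libraries.

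The counts moved with the low pool left out. Without quinquefasciatus 2, 662 genes were higher and 279 lower, without pallens 6 the counts were 369 and 70, without pallens 7 they were 228 and 49, and with both left out, where quinquefasciatus 2 is the 1 low library and its spread is assumed to be that of the others, 0 passed. Without quinquefasciatus 5 they were 862 and 422. Of the 56 genes chosen by the naming rule, 24 passed with each of the 12 libraries left out in turn, 18 of 28 that were higher and 6 of 28 that were lower.

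The clearest group among the higher genes was the machinery that builds ribosomes. Of 36 ribosome biogenesis genes tested, 13 rose in the low pools and 0 fell, with a median log2 difference of 0.37. A wider list of ribosome assembly factors that takes in all 13, drawn up after the values were seen, had 28 of 73 higher and 1 lower, with a median of 0.40. Of the 28, 18 passed with each library left out in turn.

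Factors of the small ribosomal subunit were among them. TSR1 (CPIJ001130-RA, supercont3.13:1013903-1016547), which in yeast acts in the late maturation of the small subunit, had 263 CPM in quinquefasciatus 2, 558 in pallens 6 and 628 in pallens 7. The 9 high pools had 81.3 to 161 CPM, with a median of 94.8. The classes did not overlap, and the fold was 4.17 (log2 difference 2.06 ± 0.27 SE, adjusted p = 0.00107, edgeR). SOF1 (CPIJ017451-RA), part of the complex that processes the precursor of small subunit RNA in yeast, had 58.4, 94.6 and 158 CPM against 14.2 to 33.7 CPM, a log2 difference of 2.19 ± 0.24 (edgeR adjusted p = 0.000565).

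NOB1 (CPIJ012739-RA), the enzyme that in yeast makes the final cut of small subunit RNA, had 240, 255 and 321 CPM in the low pools against 50.9 to 105 CPM (log2 difference 1.85 ± 0.22, edgeR adjusted p = 0.000742). The kinase RIO2 (CPIJ013382-RA), also of small subunit maturation, had 81.4, 124 and 166 CPM against 19.4 to 43.5 CPM. Its model overlaps another gene model, and since the libraries are not strand-specific its reads could be shared. For all 4 of these genes quinquefasciatus 2 lay between its own subspecies' high pools and the 2 low pallens pools.

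Among the higher genes were 2 factors of the large subunit. Pescadillo (CPIJ004969-RA, supercont3.81:311482-313487), which works with BOP1 in the processing of large subunit RNA, had 306 CPM in quinquefasciatus 2, 504 in pallens 6 and 597 in pallens 7. The high pools had 104 to 173 CPM, with a median of 133 (log2 difference 1.77 ± 0.22, edgeR adjusted p = 0.000956). BOP1 itself (CPIJ004506-RA) ranged from 40.5 to 63.7 CPM in the low pools and from 20.4 to 33.7 CPM in the high ones, a log2 difference of 0.92 ± 0.20. The call for BOP1 (edgeR adjusted p = 0.0144) was lost without pallens 7.

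Another 4 of the higher genes, picked with their values in view, are described as nucleolar or large subunit factors. CPIJ004960-RA, a nucleolar GTP-binding protein, had 287 to 433 CPM in the low and 69.4 to 193 CPM in the high pools. CPIJ001254-RA and CPIJ005364-RA, both described as nucleolar GTP-binding protein 2, had 80.9 to 161 against 32.2 to 58.0 CPM and 113 to 178 against 43.2 to 80.0 CPM. RLP24 (CPIJ001214-RA), which joins the large subunit precursor in yeast, had 102 to 183 against 55.01 to 87.0 CPM. In these 4 genes the classes did not overlap, and the calls held with each library left out in turn.

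RNA polymerase I copies the ribosomal RNA genes. Its 135 kDa subunit (CPIJ002457-RA) had 27.2 to 45.6 CPM in the low pools against 10.0 to 16.7 CPM in the high pools (log2 difference 1.42 ± 0.18, edgeR adjusted p = 0.000917). The largest subunit (CPIJ018338-RA) differed by 0.75 ± 0.19 (edgeR adjusted p = 0.0273), a call that was lost with any of 6 libraries left out. These were 2 of 4 RNA polymerase I and III genes tested. Of 8 tRNA modification genes 4 rose, among them a tRNA dimethylguanosine methyltransferase (CPIJ007050-RA) with 51.2 to 74.6 CPM against 14.4 to 25.9 CPM. Both of these lists were added after the values were seen.

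**Figure D2:**
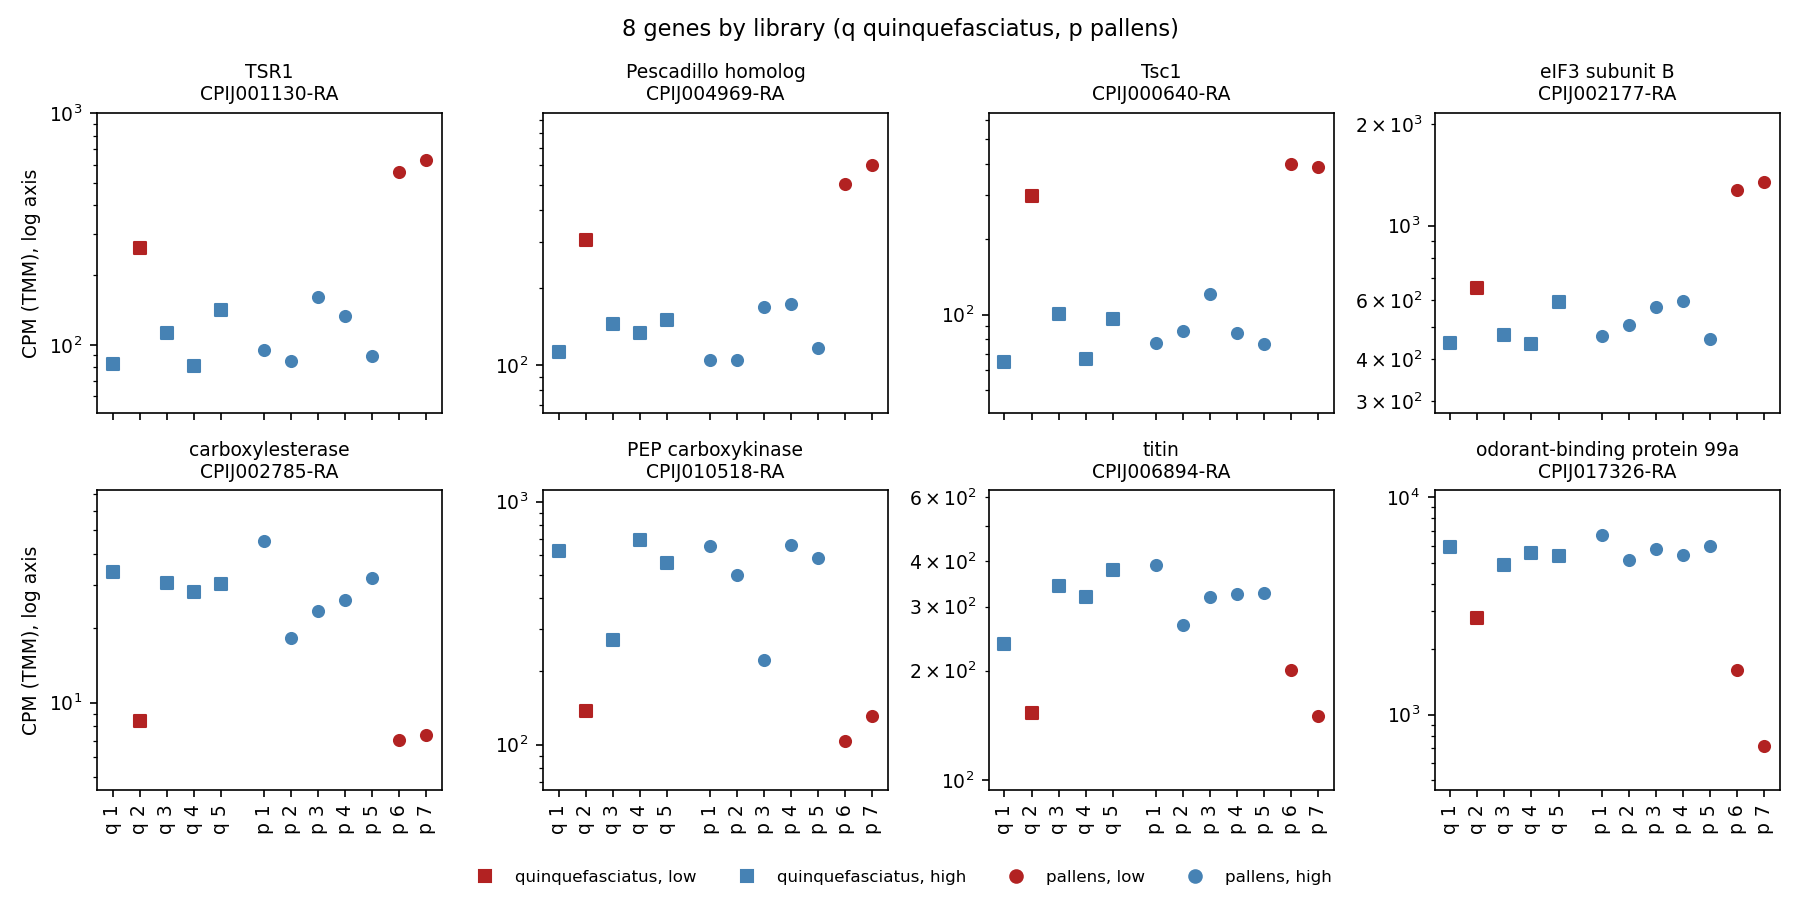
CPM (TMM-scaled, log axis) of 8 genes in each of the 12 libraries, squares for quinquefasciatus and circles for pallens, red for low and blue for high pools. In the upper row the red points lie above every blue point, and in the lower row below. Quinquefasciatus 2 lies nearer to the high pools than pallens 6 and 7 do for every gene but titin, by a small margin for carboxylesterase and PEP carboxykinase.

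Of 63 translation initiation and elongation factor genes, a list added after the values were seen, 20 rose and 1 fell, with a median log2 difference of 0.36. Of the higher ones, 10 were subunits of eIF3, the initiation factor that recruits the small ribosomal subunit to messenger RNA, out of 17 eIF3 models tested. No gene of this list passed with each library left out in turn, and without pallens 7 the list had 0 calls.

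eIF3 subunit B (CPIJ002177-RA) had 653 CPM in quinquefasciatus 2, 1279 in pallens 6 and 1352 in pallens 7, against 443 to 598 CPM in the high pools (log2 difference 1.04 ± 0.19, edgeR adjusted p = 0.00630, and 0.0679 without pallens 7). Elongation factor 2 (CPIJ001132-RA), which moves the ribosome along the message, ranged from 10689 to 16332 CPM in the low and from 7137 to 10370 CPM in the high pools. In both genes the low and high pools did not overlap.

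The structural proteins of the cytosolic ribosome had mostly positive differences, and how many passed depended on the test. Of 82 tested, 78 had a positive difference, the median was 0.48, and 3 passed with edgeR, all higher. With DESeq2 19 were higher, and with the mean of the cuticle genes as a covariate 17 were. The mean level of the list in quinquefasciatus 2, 8.96, was below that of 3 high pools (quinquefasciatus 5, pallens 1 and pallens 3, the last at 9.28), while pallens 6 and 7 had 9.57 and 9.47. Reads of this list made up 12.8% to 20.2% of the low pools and 8.69% to 12.9% of the high pools. This and later shares are of all reads, including those of the 12 score genes. Since the score genes took fewer reads in the low pools, shares of other genes are raised there by the sorting itself. Among the 3 was a model described as 60S ribosomal protein L7 (CPIJ012743-RA) with 70.0, 90.7 and 147 CPM against 20.9 to 35.7 CPM. A second L7 model with far more reads, CPIJ010020-RA, had 1979 to 3396 CPM against 1447 to 2384 CPM and did not pass (edgeR adjusted p = 0.0690).

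Mitochondrial ribosomal proteins (1 higher and 2 lower of 70, median -0.07) showed no such lean. Aminoacyl-tRNA synthetases, which charge tRNA with amino acids, had 3 of 36 higher and 0 lower, near the background.

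Other genes with large positive differences had different roles. Tsc1 (CPIJ000640-RA, supercont3.7:1579669-1583344), which in Drosophila acts with Tsc2 to hold back growth signalling through TOR, had 297 CPM in quinquefasciatus 2, 398 in pallens 6 and 387 in pallens 7. The high pools had 65.0 to 121 CPM. The fold was 4.12 (log2 difference 2.04 ± 0.19, edgeR adjusted p = 0.000533), with log2 differences of 2.14 in pallens and 1.86 in quinquefasciatus 2. The mitochondrial RNA polymerase (CPIJ000972-RA), which transcribes the mitochondrial genome, had 93.6, 208 and 264 CPM against 28.1 to 55.8 CPM.

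A model described as Ofd1 (CPIJ001761-RA) had 406, 189 and 313 CPM against 38.3 to 111 CPM, and was highest in quinquefasciatus 2. So was cytochrome P450 CPIJ005956-RA, of the family of enzymes that oxidise hormones and foreign compounds, with 871 CPM in quinquefasciatus 2 and 196 and 201 CPM in pallens 6 and 7. Its high pools had 188 to 330 CPM in quinquefasciatus 1, 3 and 4, 31.6 CPM in quinquefasciatus 5 and 26.7 to 59.8 CPM in pallens, so the classes overlapped across subspecies but not within either. The call (log2 difference 2.15 ± 0.45, edgeR adjusted p = 0.0110) was lost without quinquefasciatus 2 or without pallens 7. Of all P450s, 5 of 123 rose and 2 fell, with a median of -0.08 that turned positive under limma-voom (0.04) and with the mean of the cuticle genes as a covariate (0.05).

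Genes named for the testis and for the sperm flagellum had 7 of 41 higher and 0 lower, with a median of 0.66. That median was above those within pallens (0.42) and within quinquefasciatus (0.27), and without quinquefasciatus 2 it was 0.41, with 6 higher and 1 lower. There were 4 higher without pallens 6, and 2, with a median of 0.47, without pallens 7. Tektin (CPIJ006286-RA), a filament protein of flagella, had 42.1, 40.4 and 62.1 CPM against 8.46 to 25.3 CPM (log2 difference 1.46 ± 0.24, edgeR adjusted p = 0.00372). The reads of the whole list of 58 models made up 0.118% to 0.140% of the low pools and 0.0805% to 0.148% of the high ones, so as a share of reads the classes overlapped. Of the 7 calls, 2 passed with each library left out in turn.

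The list of eye genes had 6 of 38 higher and 0 lower, with a median of 0.10 and 21 positive against 17 negative differences. Among the 6 was arrestin domain-containing protein 2 (CPIJ008374-RA), whose description does not tie it to the eye. It had 20.2, 12.6 and 19.5 CPM against 5.74 to 11.2 CPM (log2 difference 1.06 ± 0.21, edgeR adjusted p = 0.00934). Of the 6 calls 1 held with each library left out in turn: 1 was higher without pallens 7, 2 without pallens 6, and 3, with 1 lower, without quinquefasciatus 2. Opsins, the light-sensing proteins of photoreceptors, were a family picked after its values were seen. Of 9 opsin models, 5 rose and the smallest difference was 0.17. The ultraviolet-sensitive opsin (CPIJ009246-RA) had 138, 147 and 284 CPM against 53.3 to 97.3 CPM (log2 difference 1.41 ± 0.21, edgeR adjusted p = 0.00212), though its model overlaps another. Opsin-1 (CPIJ004067-RA) also passed (edgeR adjusted p = 0.0340, lost with any of 7 libraries left out), but it had 68.2 and 118 CPM in pallens 6 and 7 and 2.74 CPM in quinquefasciatus 2, inside the 1.35 to 3.68 CPM of its subspecies. Reads of the eye list made up 0.404% to 0.687% of the low pools and 0.157% to 0.326% of the high pools. A rhodopsin (CPIJ020021-RA) gave 54.7% of these reads, and without it the ranges were 0.167% to 0.221% and 0.111% to 0.167%.

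In pooled whole larvae, fewer cells of a type and less RNA per cell cannot be told apart, and no label gives the sex or age of the larvae in a pool. The part of testis, eye or muscle cell number in these differences was not tested.

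Among the lower genes, those of detoxification other than P450s stood out by count: 12 of 69 fell and 1 rose, against 3.33% of all genes lower, with a median log2 difference of -0.54. The call held for few of them when libraries were left out. With pallens 6 left out 1 was lower, without pallens 7 there were 2, and without quinquefasciatus 2 there were 8.

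Carboxylesterase CPIJ002785-RA (supercont3.46:31636-39373), of the family that splits ester bonds in lipids and insecticides, had 8.43 CPM in quinquefasciatus 2, 7.06 in pallens 6 and 7.40 in pallens 7. The high pools had 18.2 to 45.4 CPM, with a median of 30.3. The fold was 3.87 (log2 difference -1.95 ± 0.26, edgeR adjusted p = 0.00117), with no overlap, and the call held with each library left out. Theta glutathione S-transferases, which join glutathione to reactive compounds, were a family picked after its values were seen. Of 10 models, 4 fell. Of these 4, CPIJ018629-RA and CPIJ018632-RA had 104 and 183 CPM in quinquefasciatus 2, 43.5 to 70.5 CPM in pallens 6 and 7, and 66.3 to 738 CPM in the high pools. For both, pallens 2 was the high pool inside the low range. The 1 gene of the list that rose, glutathione S-transferase 1-1 (CPIJ002683-RA), had 12.2 to 26.3 CPM against 3.46 to 10.4 CPM, while another model of that description, CPIJ018627-RA, was among the 12 that fell.

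The fat body, where storage proteins are made, also provides other haemolymph proteins. Of 41 fat body and haemolymph genes tested, 3 fell and 0 rose, with a median of -0.65 and 31 negative differences. Without pallens 6 or without pallens 7 there were 0 lower, and without quinquefasciatus 2 there was 1. The reads of the list of 51 models made up 0.815% to 1.06% of the low pools and 0.770% to 1.44% of the high pools, and 1 model had no read in any low pool. The ferritin light chain (CPIJ004069-RA), of the secreted iron store of insects, had 393, 369 and 463 CPM against 553 to 1328 CPM. The classes did not overlap, but the call (log2 difference -1.16 ± 0.31, edgeR adjusted p = 0.0330) was lost without any 1 of the 3 low pools. The other 2 were a phosphorylase kinase gamma (CPIJ014338-RA), of glycogen breakdown, and a uridine phosphorylase (CPIJ015789-RA), of nucleoside breakdown, neither of them particular to the fat body. None of 4 lipophorin models, the lipid carriers of haemolymph, passed, and their differences ran from -1.03 to -0.45.

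Enzymes that handle sugar and lipid had mostly negative differences, 24 of 30 in the glycolysis and citrate cycle list and 25 of 36 in the fatty acid synthesis list. Over all genes tested, 48.6% of the differences were positive. Phosphoenolpyruvate carboxykinase, which starts the making of glucose from smaller molecules, had 3 models tested, 2 of which fell; this gene was picked after its values were seen. CPIJ010518-RA had 137 CPM in quinquefasciatus 2, 104 in pallens 6 and 131 in pallens 7, against 223 to 695 CPM in the high pools (log2 difference -2.09 ± 0.37, edgeR adjusted p = 0.00529, held with each library left out). CPIJ010516-RA, the most abundant of the 3, had 2780, 1545 and 1848 CPM against 2488 to 4084 CPM and did not pass (edgeR adjusted p = 0.104).

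Of 30 genes of glycolysis and the citrate cycle 3 fell and 0 rose, with a median of -0.37. Without pallens 6 or without quinquefasciatus 2 there was 1 lower, and without pallens 7 there were 0. The 3 were transaldolase (CPIJ010683-RA), of the pentose phosphate pathway, 6-phosphofructokinase (CPIJ008591-RA), of glycolysis, and citrate synthase (CPIJ019861-RA), of the citrate cycle. The transaldolase model overlaps another. Of 36 genes of fatty acid synthesis 5 fell and 1 rose, but 0 were lower without pallens 6 and 0 without pallens 7. Fatty acid synthase (CPIJ005595-RA) had 125, 62.2 and 89.6 CPM against 76.3 to 942 CPM; pallens 3, at 76.3 CPM, was the high pool inside the low range. The call (log2 difference -2.30 ± 0.60, edgeR adjusted p = 0.0311) was lost without any 1 low pool. The higher one was a long-chain fatty acid CoA ligase (CPIJ006459-RA), which primes fatty acids for use, with 80.9, 77.2 and 101 CPM against 19.9 to 44.1 CPM.

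Muscle genes had 10 of 72 lower and 3 higher, with a median of -0.32. Titin (CPIJ006894-RA), the spring protein of the sarcomere, had 152, 200 and 150 CPM against 236 to 392 CPM (log2 difference -0.96 ± 0.20, edgeR adjusted p = 0.0110, and 0.0841 without pallens 7). Troponin C (CPIJ012250-RA), the calcium sensor of contraction, had 255, 217 and 106 CPM against 178 to 1246 CPM, where pallens 2 again lay among the low pools. Of the 10, 3 (myosin-Va, myosin-VIIa and myosin-IB) are unconventional myosins, which are not the myosin of muscle contraction. The 1 call of the list that held with each library left out was that of myosin-Va, among these 3. Reads of all 79 muscle models made up 5.01% to 7.34% of the low and 5.40% to 10.8% of the high pools. With pallens 7 left out 1 muscle gene was lower and 0 higher.

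Heat shock genes had 7 of 39 lower and 1 higher, with a median of -0.09. Hsp70 B2 (CPIJ011082-RA), a stress-induced chaperone, had 2, 1 and 3 reads in quinquefasciatus 2, pallens 6 and pallens 7, and 3 to 170 reads in the high pools. At so few reads its fitted difference (-4.75 ± 1.37, edgeR adjusted p = 0.0486) is no measure of size. Reads of all 81 heat shock models made up 0.673% to 0.932% of the low and 0.499% to 0.768% of the high pools, so their share of all reads was not lower. The list had 0 calls without pallens 6 and 0 without pallens 7.

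Several protease genes and some others had large negative differences. A protease model described as ovochymase-2 precursor (CPIJ018800-RA) went the other way. It had 32.0, 11.7 and 22.2 CPM in quinquefasciatus 2, pallens 6 and pallens 7 against 1.94 to 13.2 CPM in the high pools. The classes overlapped across subspecies but not within either (log2 difference 2.02 ± 0.41, edgeR adjusted p = 0.0101). Its call was lost with either of 2 libraries left out. Serine proteases 1/2 (CPIJ017990-RA, supercont3.1168:95002-95772), a secreted serine protease by its description, had 21 reads in quinquefasciatus 2 and 4 and 3 in pallens 6 and 7, against 28 to 167 reads in the high pools. Scaled, these were 4.43, 0.882 and 0.584 CPM against 6.08 to 44.0 CPM (log2 difference -3.43 ± 0.56, edgeR adjusted p = 0.00339). Its call held with each library left out in turn. It is not a member of the digestive protease list described below.

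The neighbouring cathepsin B models CPIJ001239-RA and CPIJ001240-RA (supercont3.15), cysteine proteases, were the only 2 cathepsin B models tested and both fell. They were counted as a family after their values were seen. CPIJ001239-RA had 6 reads in quinquefasciatus 2, 40 in pallens 6 and 39 in pallens 7, against 75 to 1535 reads in the high pools. Quinquefasciatus 2 was here lower than the pallens pools. An alkaline phosphatase (CPIJ015241-RA) had 18, 18 and 21 reads against 83 to 1755 reads, and a copper transporter of the cell membrane (CPIJ016468-RA) had 2, 1 and 2 reads against 10 to 270 reads. Digestive proteases as a list had 4 of 117 lower and 4 higher, so the count of lower genes was at the background. The median was -0.48 and 80 of the 117 differences were negative, while 48.6% over all genes tested were positive. Among the 4 higher was methionine aminopeptidase 2 (CPIJ020069-RA, log2 difference 0.94 ± 0.18, edgeR adjusted p = 0.00829), whose description does not tie it to the gut. Without pallens 7 there were 1 lower and 0 higher. The call of 1 lower gene of the list, a zinc carboxypeptidase (CPIJ001742-RA), held with each library left out in turn, though its model overlaps another.

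General odorant-binding protein 99a (CPIJ017326-RA, supercont3.984:153967-154634), a small secreted carrier protein and a highly read gene, fell by a wide margin. It had 2784 CPM in quinquefasciatus 2, 1605 in pallens 6 and 718 in pallens 7. The high pools lay closely together, from 4874 to 6729 CPM with a median of 5567. The log2 difference was -1.76 ± 0.31 (edgeR adjusted p = 0.00519), and the call held with each library left out. The order of the 3 low pools was that of their storage score, but the high pools did not keep to such an order. Quinquefasciatus 3 was the lowest of them at 4874 CPM, while pallens 2, lowest of them in score, had 5147 CPM. Of 14 odorant-binding protein models, a family picked after its values were seen, 3 fell and 0 rose.

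The salivary and adult female list, to which it belongs, had 3 of 43 lower and 1 higher, with a median of -0.23. Its reads made up 0.247% to 0.434% of the low and 0.606% to 0.785% of the high pools; without this 1 gene they were 0.134% to 0.161% and 0.0997% to 0.207%.

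**Figure D3:**
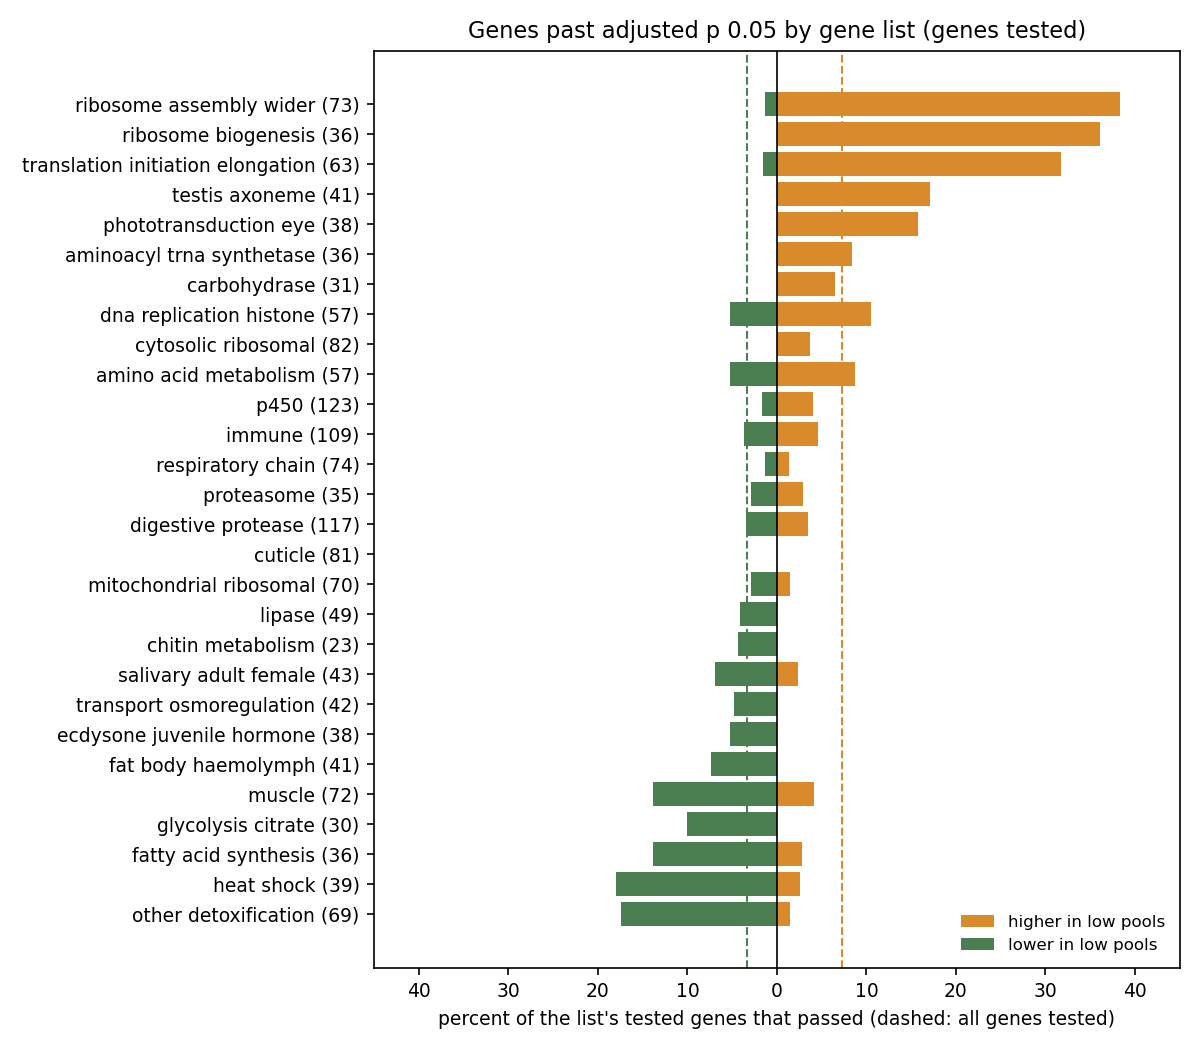
Percent of the tested genes of each list that were higher (orange, right) or lower (green, left) in the low pools at adjusted p under 0.05, with the number of genes tested in brackets; dashed lines mark the shares among all 11251 genes, and the lists of 4 and 8 genes are not drawn. Ribosome assembly and translation factors extend farthest to the right, detoxification and heat shock genes farthest to the left, and the cuticle list has no call.

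Amino acid metabolism had 5 of 57 higher and 3 lower. The 5 became 1 with no filter or with the score genes left out of library sizes, and 0 without pallens 6 or without pallens 7. Among the 3 was phosphoserine aminotransferase (CPIJ008287-RA), of serine synthesis, with 13.5, 22.9 and 19.7 CPM against 38.2 to 93.7 CPM, though its model overlaps another. Immune genes had 5 of 109 higher and 4 lower, and 0 lower without pallens 6 or without pallens 7. DNA replication and histone genes had 6 of 57 higher and 3 lower (2 and 0 without pallens 7), and the higher ones included models described as cyclin L and cyclin T, which act in transcription. Ecdysone and juvenile hormone genes had 0 higher and 2 of 38 lower, among them juvenile hormone esterase (CPIJ007135-RA), at 1.90, 1.76 and 3.70 CPM against 1.54 to 41.5 CPM. Transport and osmoregulation had 2 of 42 lower, lipases 2 of 49 lower, chitin metabolism 1 of 23 lower, carbohydrases 2 of 31 higher, the respiratory chain 1 of 74 each way and the proteasome 1 of 35 each way. Without quinquefasciatus 2, 11 of 35 proteasome genes were lower, and the median went from -0.33 to -0.67. The ecdysone and juvenile hormone, transport, carbohydrase and respiratory chain lists had 0 calls without pallens 6 and 0 without pallens 7, and the lipase and chitin lists had 0 without pallens 7 and 0 without quinquefasciatus 2.

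Whether quinquefasciatus 2 changes in the same direction as pallens 6 and 7 was examined with libraries that share nothing. Genes were chosen from the 7 pallens libraries alone, where 378 were higher and 108 lower in pallens 6 and 7 (edgeR adjusted p under 0.05), and then read in quinquefasciatus 2 against the other 4 quinquefasciatus libraries. Of the 378, 359 (95.0%) were higher in quinquefasciatus 2, with a median log2 difference of 0.71. Of the 108, 95 (88.0%) were lower, with a median of -0.80. Over all 11194 genes compared, 50.4% were higher and 49.6% lower.

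Quinquefasciatus 2 was the highest of the 5 quinquefasciatus libraries for 305 of the 378 genes, and each of the other 4 was highest for 7 to 37 of them. It was the lowest of the 5 for 70 of the 108 genes, and each of the others for 3 to 15. The mean level of the 378 genes, as log2(CPM + 1), was 5.05 in quinquefasciatus 2 and 4.22 to 4.43 in the other 4. That of the 108 genes was 4.80 against 5.51 to 5.77. In direction, then, quinquefasciatus 2 went with pallens 6 and 7 for most of these genes. The 2 pallens pools had means of 5.67 and 5.80 for the 378 genes, and 4.04 and 3.96 for the 108, but the genes were chosen by their difference in these pools, so the sizes of the steps cannot be compared.

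**Figure D4:**
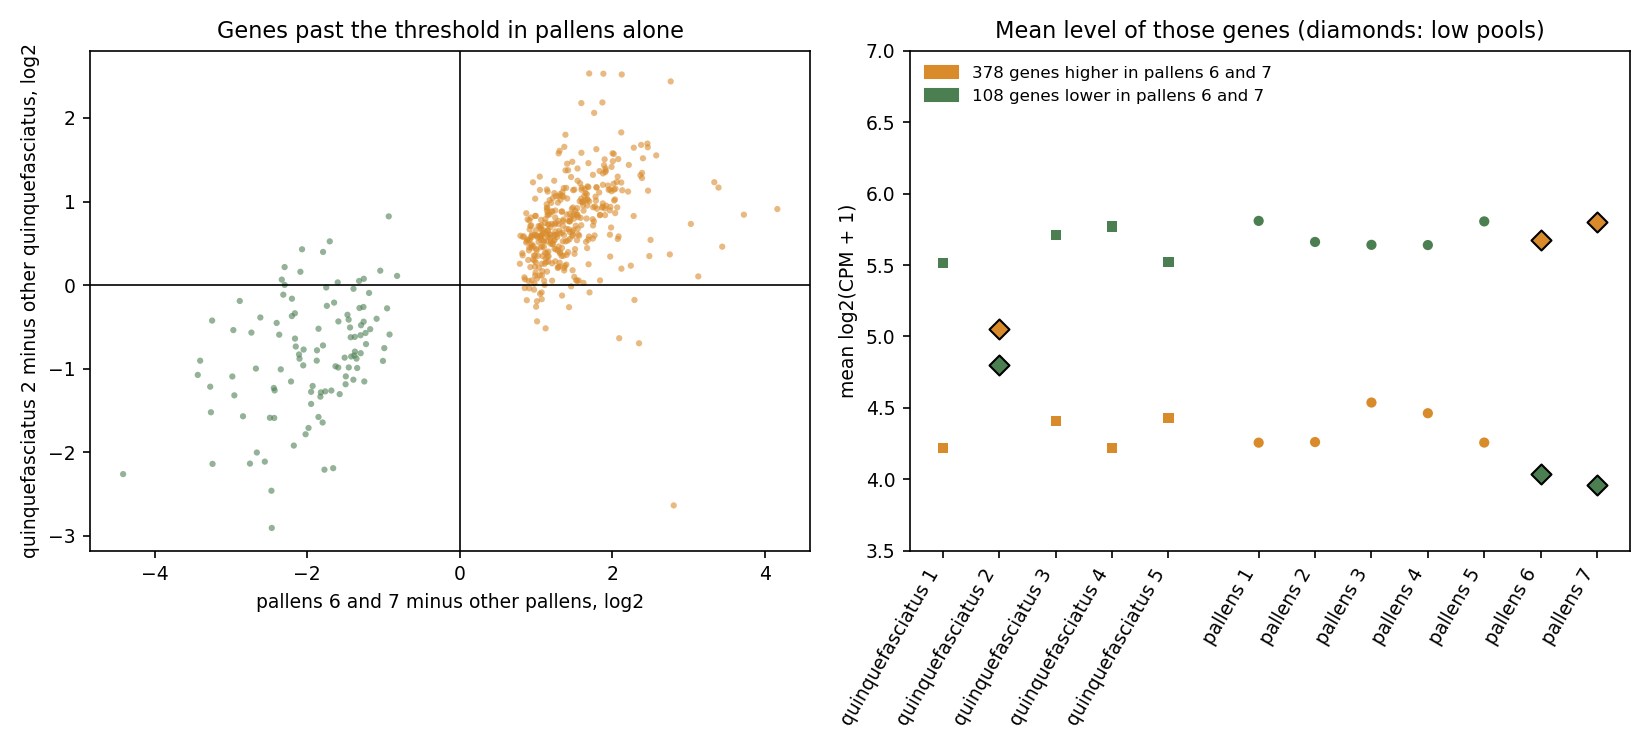
Left, for each gene past the threshold in the 7 pallens libraries alone (378 higher, 108 lower), the log2 difference of pallens 6 and 7 from the other pallens pools (x) and of quinquefasciatus 2 from the other quinquefasciatus pools (y). Right, the mean log2(CPM + 1) of the 378 higher and 108 lower genes in each library; in quinquefasciatus 2 the means are 5.05 and 4.80. The genes were chosen in the pallens libraries, so only the direction in quinquefasciatus is to be read.

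Read the other way, the 100 genes with the smallest p for being higher in quinquefasciatus 2 within its own subspecies were higher in pallens 6 and 7 in 75 cases, and the 100 for being lower were lower in 87. Over all 10845 genes compared, 47.9% were higher and 52.1% lower. In the 5 quinquefasciatus libraries fitted alone 1 gene passed, and it went the other way in pallens. Across 10520 genes the 2 within-subspecies differences had a Pearson r of 0.29 and a Spearman rho of 0.42, a description over genes, which are not independent. In a single library there is no replicate: in the fit with all 12 libraries 0 genes passed for quinquefasciatus 2 alone by edgeR (1054 had an unadjusted p under 0.05), and 0 passed for a difference between the subspecies in the low against high change (681 unadjusted). The pallens contrast in that fit called 986 genes (8.76%), 715 higher and 271 lower (6.35% and 2.41%). These counts do not show that the 2 changes are equal.

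Some groups had differences of opposite sign in the 2 subspecies, a contrast that was not tested for the lists. The cuticle genes, which form the exoskeleton and follow the moulting cycle, had 0 calls: the median log2 difference of 81 genes was -1.88 in pallens and 1.27 in quinquefasciatus. The mean level of the list was 4.72 in quinquefasciatus 2 against 2.57 to 3.81 in its subspecies. It was 3.58 and 3.68 in pallens 6 and 7, inside the 2.92 to 5.67 of the other pallens pools, where pallens 2, 3 and 5 were high and pallens 1 and 4 low. With the mean of the cuticle list as a further covariate, an alternative added after the values were seen, 1069 genes were higher and 546 lower.

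The fatty acid synthesis list had a mean level of 4.24 in quinquefasciatus 2, above the 3.38 to 4.04 of its subspecies. In pallens 6 and 7 it had 3.42 and 3.43, below the 3.80 to 4.60 of theirs. The sign in quinquefasciatus depends on the summary, since the median of the fitted differences was -0.09 there, and -0.93 in pallens. The proteasome list, of the complex that degrades marked proteins, had a mean level of 5.75 in quinquefasciatus 2 against 5.51 to 5.62. In pallens 6 and 7 it had 5.41 and 5.36 against 5.55 to 6.04. Here the medians of the fitted differences had the same signs, 0.21 in quinquefasciatus and -0.65 in pallens. The ribosome biogenesis list, by contrast, was highest in the low pools of both subspecies, with 4.82 in quinquefasciatus 2 against 4.40 to 4.53, and 5.03 and 5.09 in pallens 6 and 7 against 4.34 to 4.63.

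**Figure D5:**
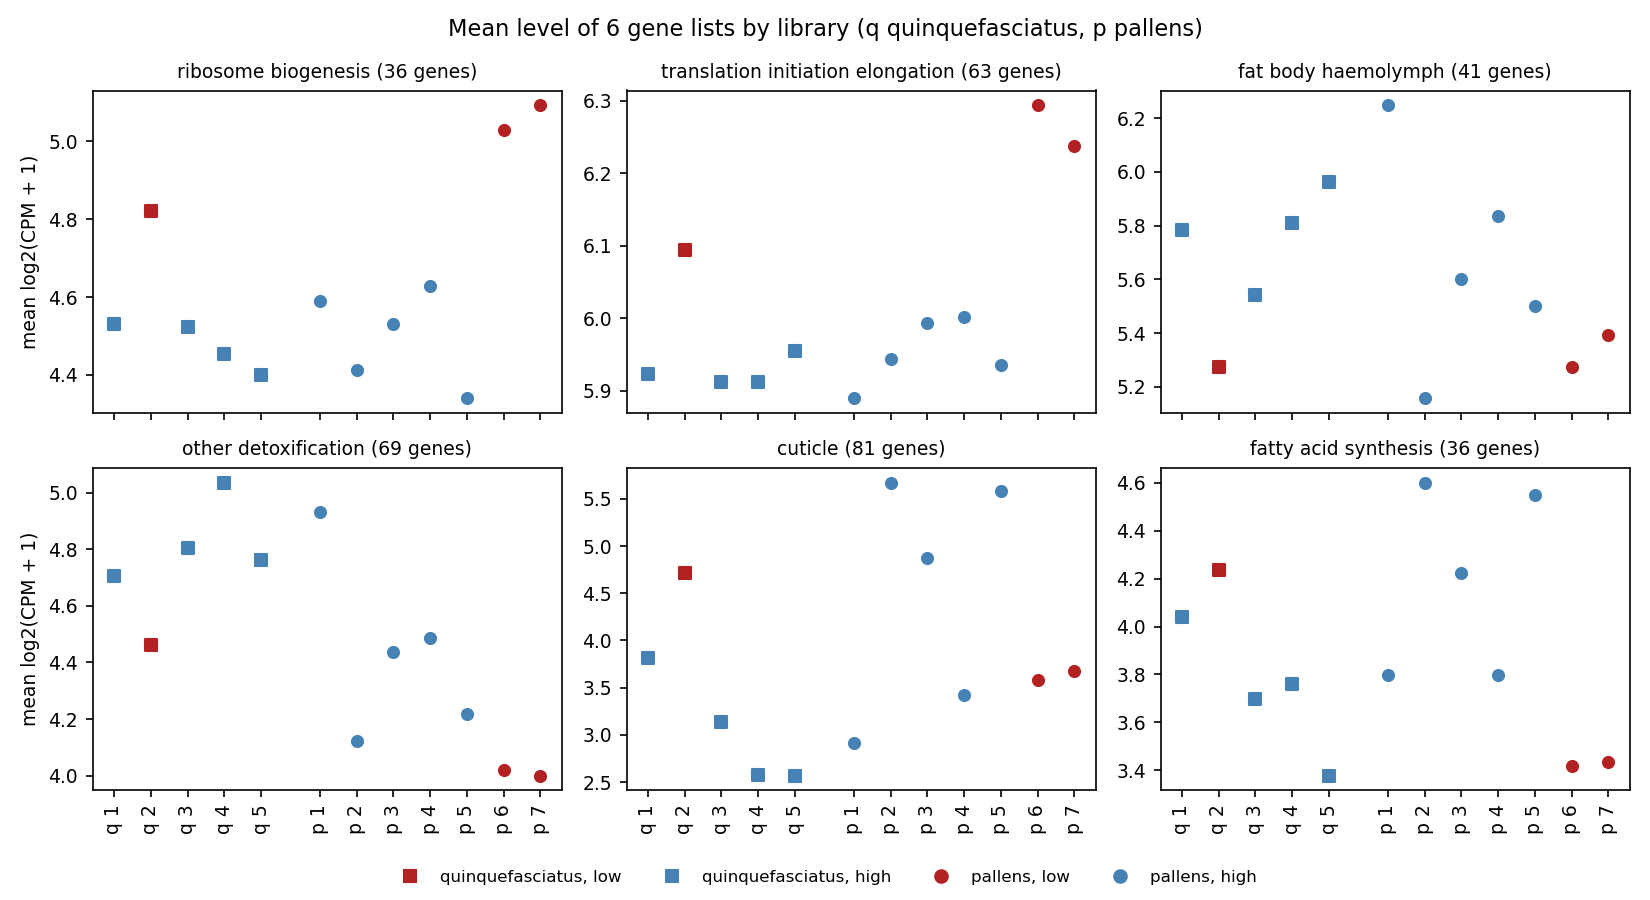
Mean log2(CPM + 1) of 6 gene lists in each library, squares for quinquefasciatus and circles for pallens, red for low and blue for high pools. In the ribosome biogenesis and translation factor lists the red points lie above every blue point, in the fat body list they overlap with pallens 2, and in the cuticle and fatty acid lists quinquefasciatus 2 lies above its subspecies while pallens 6 and 7 do not.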

How the data were processed

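Total RNA of 30 pooled larvae per library was made into non-directional poly(A) libraries, per the labels' protocols, and their aligner, read counter and genome build were not stated there. The authors deposited, for each library and 17757 gene models, a count of uniquely mapped reads beside an RPKM. Recomputing RPKM from the deposited counts and lengths gave the same numbers, so the counts were used. Gene names, descriptions and supercontig coordinates are those of the files.

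Groups are the subspecies of the labels, and replicates were numbered in accession order. The storage classes, gene lists and comparisons were chosen with earlier results of these data known. Genes were kept where at least 3 libraries exceeded the CPM equal to 10 reads (2.2456) and the total was at least 15; the 12 score genes stayed in library sizes and were not tested. CPM of tested genes is scaled by TMM, and that of score genes by library totals. Differences were fitted with edgeR 4.0.16 (R 4.3.3; quasi-likelihood, robust) with subspecies and class as terms, or with the 4 combinations of subspecies and class for changes within a subspecies and their difference. SE is the log2 difference divided by the root of the quasi-F. The biological coefficient of variation was 38.8%. On simulated data of the same size, 19 of 100 genes changed by 2-fold and 84 of 100 changed by 4-fold were recovered, with 4 false among 107 calls over 11251 genes. The share of false calls for pools sorted by their own values, or for genes that move together, was not tested.

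Genes named by rule were described genes whose log2 CPM averaged 3 or more: the 8 largest differences each way that were apart in both subspecies, the 2 smallest p of each list with a call, and every score gene. Any other gene was picked with its values in view. So were the families counted by description: eIF3 subunits, opsins, theta glutathione S-transferases, cathepsin B, odorant-binding proteins, lipophorins and phosphoenolpyruvate carboxykinase. Alternatives used other normalizations, filters, thresholds, covariates and scores, DESeq2 1.42.0, limma 3.58.1, and each library left out. Of 17757 models, 430 overlap another, and unstranded reads there cannot be assigned to 1 gene.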

Additional observations from a re-analysis of the deposited data

Results flagged for a closer look

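In 11 of 196 groups of 4 or 5 libraries, 1 high pool stood far from the others of its subspecies and class. The limits used flag about 1 in 20 groups by chance where values are normally spread, so 11 is near the number that chance gives. The flagged values were CPM without a log, and in all 11 the flagged pool lay above the others. In quinquefasciatus 3, Ofd1 (CPIJ001761-RA) had 110.9 CPM against 51.9 to 61.1 CPM in the other high pools, a lethal(2)essential for life model (CPIJ005643-RA) had 34.57 CPM against 2.58 to 7.69 CPM, and chitinase (CPIJ013082-RA) had 264.1 CPM against 145 to 158 CPM. In quinquefasciatus 5, CPIJ014310-RA had 32.63 CPM against 23.9 to 25.00 CPM, and the hexamerin CPIJ004282-RA, scaled by library total, had 233.692 CPM against 1.35 to 7.34 CPM.

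In pallens 3, Tsc1 (CPIJ000640-RA) had 120.8 CPM against 76.6 to 85.8 CPM, alkaline phosphatase (CPIJ015241-RA) had 449.2 CPM against 31.5 to 117 CPM, and the copper transporter (CPIJ016468-RA) had 69.1 CPM against 3.48 to 14.5 CPM. In pallens 1, cathepsin B (CPIJ001239-RA) had 400.8 CPM against 43.7 to 128 CPM, glutactin (CPIJ004637-RA) had 58.74 CPM against 3.78 to 18.4 CPM, and transaldolase (CPIJ010683-RA) had 245.9 CPM against 166 to 186 CPM.

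For 2 lists every low pool lay beyond the high pools of its own subspecies, on opposite sides. The mean log2(CPM + 1) of the fatty acid synthesis list differed by 0.517537 in quinquefasciatus 2 and by -0.768003 in pallens 6 and 7. That of the proteasome list differed by 0.197423 and by -0.452203. The difference between the subspecies was not tested for the lists.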

How the results depend on the processing

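No paired analysis was possible because the replicate numbers only follow accession order and tie no libraries together. Leaving out 1 library gave 228 to 862 higher and 49 to 441 lower genes for low against high pools, and 46 to 706 higher and 5 to 294 lower for the pallens pools; the lowest values of both came without pallens 7. With pallens 6 and 7 both left out, which leaves 1 low library, 0 genes were higher and 0 lower, and in the 7 pallens libraries alone 378 were higher and 108 lower. At an adjusted p under 0.01 there were 336 higher and 60 lower (pallens 191 and 28). DESeq2 gave 806 lower, 994 higher, and a fit with no filter on low counts gave 179 lower in pallens. The pallens counts also moved without pallens 5, to 428 and 130, and without quinquefasciatus 4, to 157 lower; the cause was not tested. The share of genes higher in quinquefasciatus 2 was 97% with the 100 smallest p and 97.6% with CPM by library totals. No gene was chosen at adjusted p under 0.01, or without pallens 5, 6 or 7, so there the share has no value. By the median over the score genes, or the genes with 10 reads in every library, 2 libraries were below 10. Among 1400 pairs of a named gene and an alternative, 1172 kept the call and the direction, 228 lost the call and 0 reversed.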
